A study of Mus musculus with 3 samples.

Results

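Mesenchymal cells of kidney explants started at E12.5 and cultured for 5 days were compared with mesenchymal cells of E11.5 kidneys that had not been cultured. Counts came from SORT-seq, a method that sorts single cells into plates of 384 wells and tags every captured transcript with a molecular identifier. Cells were taken as mesenchymal by a rule on their own counts. A well needed at least 1000 counts of nuclear-encoded genes and at most 30% mitochondrial counts, with no count of Epcam, Cdh16, Pecam1, Ptprc, C1qa or Sox10. Fewer than 2 counts of Six2, Eya1 and Uncx together and at least 1 count of Col1a1 or Col3a1 were also required, and wells with more than 3 times their plate's median were left out. The rule gave 138 of the 200 kept wells of the E12.5 cultured plate (69.0%, 95% interval 62.1 to 75.3) and 113 of the 337 kept wells of the E11.5 uncultured plate (33.5%, 28.5 to 38.8), together 251 of the 837 kept wells of the series. Both groups were C57BL/6 mice with the LGR6-EGFP-IRES-CreERT2 allele, and the cultured group carried ROSA26-tdTomato in addition. Explants grew in Dulbecco's modified Eagle medium with 10% fetal calf serum. The third plate held E11.5 explants of the same 2 alleles, with a culture time that the title puts at 7 and the stage field at 5 days, and values of its 205 mesenchymal wells are given side by side.

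The LGR6 allele places a reporter and a tamoxifen-inducible Cre under the control of Lgr6, whose product binds R-spondins and strengthens Wnt signalling. The sources used here do not give the sort gate, any tamoxifen treatment or the number of mice behind each plate. Culture, the reporter genotype, the starting stage and the sequencing run differed together between the plates and cannot be told apart. Each group is a single plate without replicates, so no test was run. Intervals are exact 95% intervals (Poisson for levels, Clopper-Pearson for ratios and shares) and cover counting error only.

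The mesenchyme around the branching ureteric bud of the embryonic kidney holds nephron progenitors and, outside them, interstitial or stromal progenitors marked by the transcription factor Foxd1. Stromal progenitors supply retinoic acid to the ureteric bud, and they later give rise to cortical and medullary fibroblasts, mesangial cells, pericytes and the smooth muscle of vessels. As mesenchyme of the fetus matures it leaves the cell cycle, loses proteins of early development such as Hmga2 and lays down collagens, small proteoglycans and elastic fibres.

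The genes of the rule are a description of the choice and are not counted below. Among the chosen wells, 25 cultured and 42 uncultured wells had exactly 1 count of Six2, Eya1 and Uncx, just inside the limit, and 8 and 23 wells with 2 counts lay just outside it. At the collagen limit 6 uncultured wells had 1 count and 3 that met the rest of the rule had none, and 16 cultured and 14 uncultured wells missed the rule by a single count of another cell type's marker. The deepest well inside and the shallowest outside the depth limit had 25749.7 and 34514.3 counts on the cultured plate and 17682.2 and 21033.2 on the uncultured plate. Col1a1 itself stood at 7616.5 CPM (counts scaled to a total of 1000000) in cultured and 1513 CPM in uncultured mesenchyme. CPM throughout are summed over a plate's mesenchymal wells and scaled to their counts of nuclear-encoded genes.

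Chosen wells held 1302900 counts on the cultured and 680296 on the uncultured plate, and the median well had 8039.1 against 5244.9 counts and 3514 against 2857 genes. Mitochondrial transcripts took a median of 3.34% against 7.38%, and Gm42418, a transcript overlapping ribosomal RNA sequence, took 2.31% against 4.45% of the counts. Control wells of the uncultured plate had a median of 632.3 counts and 7 of 15 reached 1000, while those of the cultured plate had a median of 129 and none reached 1000. The part of depth, free RNA and RNA quality in the differences below was not tested. Tables name wells by plate position, so all 384 names are shared between plates by layout and no barcode overlap could be counted.

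All 12 mesenchyme markers were detected on both plates, with a summed level of 14361 CPM in cultured and 6588 CPM in uncultured wells. Pdgfra, the platelet-derived growth factor receptor of fibroblast precursors, stood at 381 and 378 CPM. Markers of tubule and ureteric epithelium summed to 40.7 and 67.6 CPM, of leukocytes to 43.7 and 76.4 CPM and of endothelium to 88.3 and 52.9 CPM. Cdh1 was at 0 on the uncultured plate, and Laptm5 and Cd52 were at 0 on the cultured plate. Nephron progenitor markers other than the rule's own summed to 532 and 587 CPM, and markers of early nephron and podocyte to 616 and 788 CPM. Wt1, a transcription factor of podocytes and of kidney mesenchyme, was at 143 CPM (123 to 165) in cultured and 503 CPM (451 to 559) in uncultured wells, and Pax2 at 12.3 against 63.2 CPM.

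Markers of other trunk tissues were higher in uncultured wells. The skeletal muscle list summed to 436 CPM uncultured and 58.3 CPM cultured, but Actc1, an actin of heart and embryonic muscle, made up most of it and a single well held 53.05% of the uncultured Actc1 counts. Myf5 and Pax7 were at 0 on both plates, and Myod1 and Myog on the cultured plate. Cartilage markers summed to 641 CPM uncultured and 235 CPM cultured, with Acan and Cnmd at 0 on both plates, and neural markers to 166 and 75.2 CPM, with Foxd3 at 0 on both. Haemoglobin and other erythroid transcripts went the other way, with 177 CPM in cultured, 66.1 CPM in uncultured and no count in E11.5 cultured wells. Leaving out wells with muscle, cartilage or neuronal genes left 111 cultured and 63 uncultured wells. In them 5750 genes were measured, 781 at least 2-fold higher and 579 lower. Of the genes called in all wells, 595 of the 661 higher and 417 of the 502 lower ones measured there were still called.

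In all, 7414 genes had at least 50 counts over both plates. Of these 848 (11.4%) were at least 2-fold higher and 740 (9.98%) at least 2-fold lower in cultured mesenchyme, together 21.4%. The exact interval of the ratio excluded 1 for each of these genes, which largely follows from the limits of 50 counts and 2-fold and adds no support. The median log2 ratio of all measured genes was -0.10, with quartiles of -0.57 and 0.46, and gene values below are relative to total counts and not to this median. At least 8-fold differences were found for 96 higher and 16 lower genes. Because the cultured plate held more counts, the minimum of 50 counts admits more of the strongly higher than of the strongly lower genes, and these numbers are not compared. Centring the ratios on their median gave 990 higher and 574 lower genes.

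**Figure D1:**
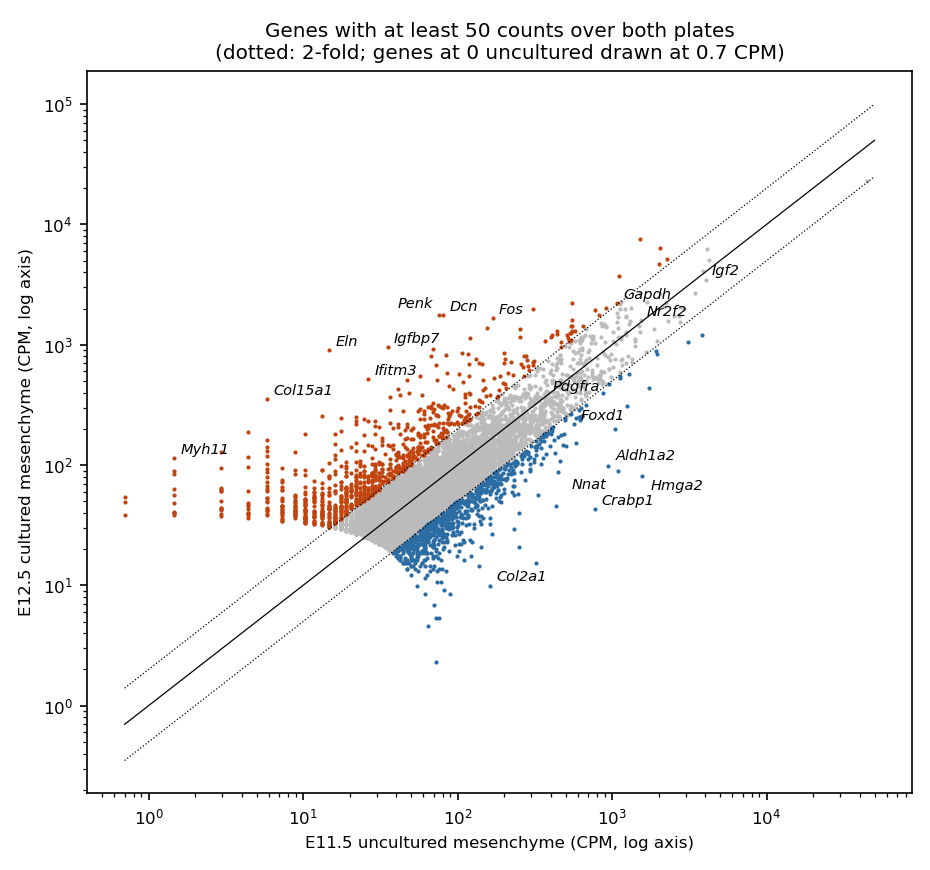
Level of each of 7414 genes in E12.5 cultured mesenchyme (vertical axis, CPM, log scale) against E11.5 uncultured mesenchyme (horizontal axis, CPM, log scale). Red points are the 848 genes at least 2-fold higher and blue points the 740 at least 2-fold lower in culture, dotted lines mark 2-fold, and Dcn, Penk, Igfbp7 and Col15a1 lie far above the diagonal while Hmga2, Crabp1 and Nnat lie far below it.

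Of the 15 higher genes whose ratio interval lay farthest from 1 under the rule for named genes, 5 encode matrix proteins or enzymes that act on matrix. Col15a1, a collagen of the zone beneath basement membranes, stood at 353 CPM (322 to 387) in cultured and 5.88 CPM in uncultured wells, a ratio of 60.05 (23.3 to 221). Decorin (Dcn), a small proteoglycan that binds collagen fibrils, stood at 1771 CPM (1699 to 1844) against 80.8 CPM (60.9 to 105), 21.9-fold higher (16.8 to 29.2). Biglycan (Bgn), its close relative, was at 808 against 67.6 CPM, 11.9-fold higher (8.89 to 16.4). Adamts2, which trims the ends of procollagens, was at 117 against 4.41 CPM, and Tgm2, a transglutaminase that cross-links matrix proteins, at 244 against 17.6 CPM. In E11.5 cultured mesenchyme Col15a1 was at 343, Dcn at 2096, Bgn at 557, Adamts2 at 142 and Tgm2 at 142 CPM. Each of these 5 genes was above its uncultured level on both cultured plates, which are set against the same uncultured plate. Over the alternatives the log2 ratio of Col15a1 (5.91) ranged from 3.52 to 6.03, that of Dcn (4.45) from 3.52 to 4.56 and that of Bgn (3.58) from 3.33 to 4.75. Adamts2 (4.73) ranged from 2.10 to 4.97 and Tgm2 (3.79) from 2.48 to 5.05. Col15a1 and Adamts2 had 4 and 3 uncultured counts. Where an alternative leaves none, 3 counts stand in as a floor, and their low ends can rest on it.

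Other genes of the 15 encode secreted signals, membrane proteins and intracellular regulators. Penk, which encodes the precursor of enkephalins and marks interstitial cells of the developing kidney, stood at 1779 CPM (1707 to 1853) against 76.4 CPM (57.1 to 100), 23.3-fold higher (17.7 to 31.3). Igfbp7, a secreted protein that binds insulin-like growth factors, was at 956 against 35.3 CPM, 27.1-fold higher (18.1 to 42.5). Ifitm3 and Ifitm1, membrane proteins that restrict virus entry, stood at 516 against 26.5 CPM and at 183 against 10.3 CPM. Ifitm genes resemble each other in sequence, and reads may have been split among them. Socs3, an inhibitor of cytokine signalling, was at 256 against 13.2 CPM, 19.4-fold higher (10.1 to 42.7). Ndufa4l2, a target of the hypoxia-inducible factors that lowers respiratory complex I activity, was at 188 against 4.41 CPM, a ratio of 42.6 (14.4 to 208). Plac8 was at 140 against 5.88 CPM and Pdlim3, a protein of actin filaments, at 95.2 against 2.94 CPM (2 counts). Casp4, an inflammatory caspase, was at 54.5 CPM (42.6 to 68.7) and had no uncultured count. With 3 uncultured counts as the floor its log2 ratio was at least 3.63, a value that depends on this floor, and the lower limit of the exact interval, 9.79-fold, lies below it. All of these genes stayed past 2-fold in the alternatives that measured them, but sizes moved. The log2 ratio of Ifitm3 (4.29) ranged from 2.65 to 4.54, of Penk (4.54) from 4.30 to 6.55 and of Igfbp7 (4.76) from 3.83 to 5.99. That of Socs3 (4.28) ranged from 3.01 to 5.41, of Ndufa4l2 (5.41) from 3.65 to 6.12 and of Pdlim3 (5.02) from 2.59 to 5.24. With 3 uncultured counts of Ndufa4l2 and 2 of Pdlim3, their low ends can rest on the floor.

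The 15 lower genes chosen in the same way include retinoid genes and Twist1 and Ebf3, given further on, and the following. Hmga2, a chromatin protein of proliferating embryonic cells, stood at 81.4 CPM (66.6 to 98.4) in cultured and 1562 CPM (1470 to 1659) in uncultured mesenchyme, 19.2-fold lower (15.7 to 23.7). Its relative Hmga1 was at 5.37 against 76.4 CPM. Mycn, the Myc family member of progenitor cells, was at 14.6 against 138 CPM, 9.48-fold lower (5.74 to 16.4), and Chd7, a chromatin remodeller, at 9.21 against 82.3 CPM. The imprinted gene Nnat was at 89.8 against 1088 CPM, 12.1-fold lower (9.96 to 14.9). Col2a1, the collagen of cartilage and its precursors, was at 9.98 against 162 CPM. Snrpf, a core protein of the spliceosome, stood at 45.3 against 435 CPM on the E12.5 cultured plate and at 147 CPM on the E11.5 cultured plate, and Snhg6, a host of small nucleolar RNAs, at 8.44, 89.7 and 51.5 CPM in the same order. Rps6ka6 was at 6.91 against 70.6 CPM and Trim59 at 20.7 against 143 CPM. Hmga1, Snrpf and other short highly expressed genes have processed copies in the genome, and the sources used here do not say how reads matching several places were counted.

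**Figure D2:**
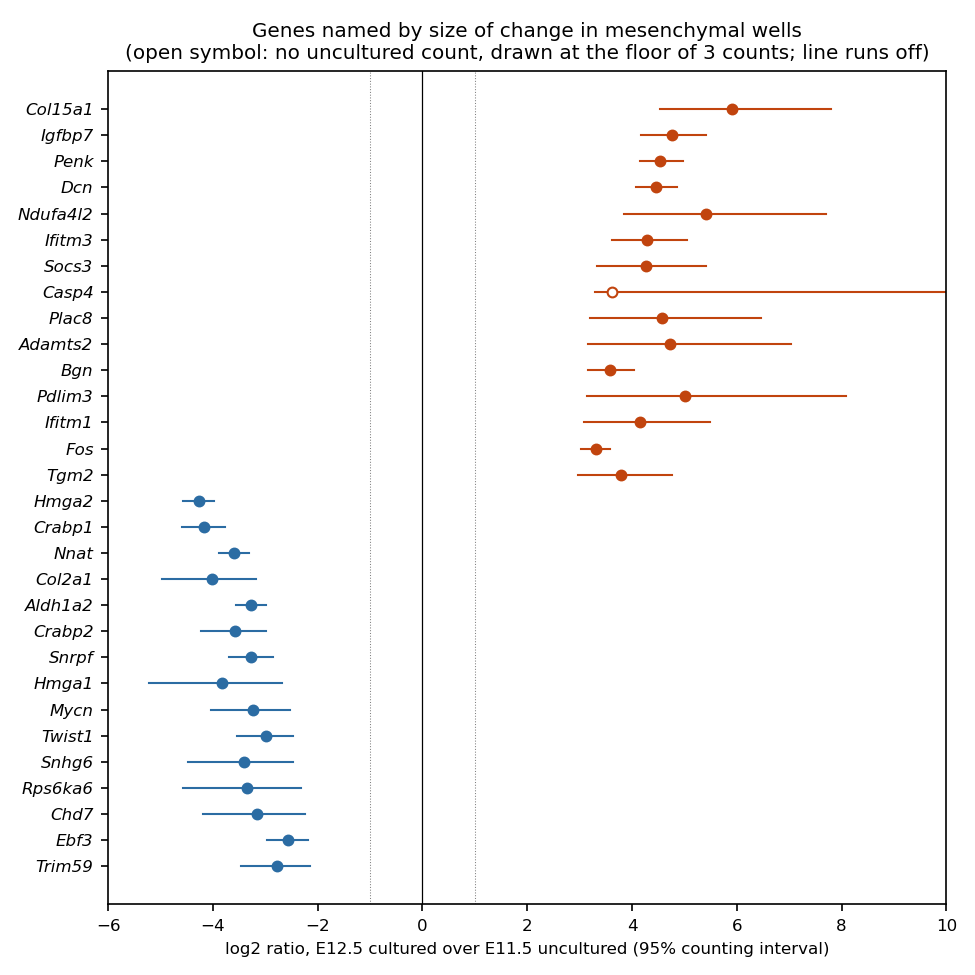
The log2 ratio of E12.5 cultured over E11.5 uncultured mesenchyme (horizontal axis) for the 15 higher (red) and 15 lower (blue) genes chosen by the limit of the interval nearest 1, with lines for the 95% counting interval. Hmga2 and Crabp1 stand near -4 and Col15a1 near 6, and Casp4, with no uncultured count, is an open symbol drawn at the floor.

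Some abundant genes differed little. Of 605 genes with at least 500 counts, 58 (9.59%) had an interval of the ratio lying between 0.8 and its reciprocal. Among the most abundant were Gnas, Igf2, Hsp90ab1, Nr2f2, Rps6, Rpl12, H3f3b and Rps24. Igf2, the fetal growth factor, stood at 3477 CPM cultured, 4031 CPM uncultured and 3870 CPM on the E11.5 cultured plate. Nr2f2, a nuclear receptor of mesenchyme and veins, stood at 1605, 1535 and 1349.5 CPM in the same order, and the chaperone Hsp90ab1 at 2070, 2168 and 2115 CPM.

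Transcription factors of stromal progenitors did not share a direction. Of 15 measured, 5 were at least 2-fold lower and 1 higher, and the median log2 ratio was -0.26. Ebf3, a factor of early mesenchyme, stood at 56.0 CPM (43.9 to 70.45) in cultured, 332 CPM (290 to 378) in uncultured and 72.2 CPM in E11.5 cultured wells, 5.93-fold lower (4.54 to 7.83), and Ebf2 at 4.61 against 64.7 CPM. Twist1, which keeps mesenchyme from differentiating, was at 29.2 against 232 CPM, 7.96-fold lower (5.56 to 11.7), and at 74.3 CPM in E11.5 cultured wells. Foxd1, the marker of cortical stromal progenitors, stood at 219 CPM (194 to 246) against 570 CPM (515 to 630), 2.61-fold lower (2.23 to 3.05), and at 108 CPM in E11.5 cultured wells. The family member Ebf1 (167 against 143 CPM) and Tbx18, a factor of ureteric and vascular mesenchyme (133 against 150 CPM), had ratio intervals that included 1. Meis1, a homeobox cofactor, was at 319 against 370 CPM and its interval included 1 as well.

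Tcf21, which stromal cells need to branch the ureteric bud and form glomeruli, was the member of this list at least 2-fold higher, with 328 CPM (297 to 360) against 112 CPM (88.0 to 140), 2.93-fold (2.29 to 3.80). Prrx1, a homeobox factor of limb and trunk mesenchyme, was 2.13-fold lower (1.61 to 2.81), and this call was lost in 5 of 14 alternatives. In plate rows A to G alone, with 64 cultured and 35 uncultured wells, the log2 ratio of Foxd1 was -0.70 in place of -1.38. That of Ebf1 was 1.83 there in place of 0.22, and so past 2-fold. Hox genes, which give cells their position along the trunk, gave 2 lower and 1 higher of 15 measured, with a median log2 of -0.47. That share did not exceed the 21.4% of all measured genes past 2-fold. Hoxd11, which the kidney mesenchyme needs together with Hoxa11, stood at 155 against 156 CPM. Hoxa11 stood at 112 against 54.4 CPM and Hoxc10 at 186 against 384 CPM, and both calls were lost in some alternatives, 2 for Hoxa11 and 3 for Hoxc10.

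Genes that bind and make retinoic acid were among the lowest in culture. Crabp1, the cytoplasmic carrier of retinoic acid in early mesenchyme, stood at 43.0 CPM (32.5 to 55.8) in cultured, 776 CPM (711 to 845) in uncultured and 44.6 CPM in E11.5 cultured wells, 18.1-fold lower (13.7 to 24.2). Crabp2 was at 20.7, 248 and 18.6 CPM in the same order. Aldh1a2, the enzyme that makes retinoic acid, was at 97.6 CPM (81.3 to 116), 940 CPM (869 to 1017) and 88.1 CPM, 9.65-fold lower (7.97 to 11.8). Cyp26b1, which degrades retinoic acid, was at 20.0 against 48.5 CPM.

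Other members of the retinoid list went the other way or hardly differed. Dhrs3, which turns retinal back into retinol, stood at 482 against 196 CPM, 2.47-fold higher (2.04 to 2.996), and the receptor partner Rxra at 95.9 against 39.7 CPM. The receptors Rara (83.7 against 76.4 CPM), Rarb (57.6 against 55.9 CPM) and Rarg (93.6 against 72.0 CPM) had ratio intervals that included 1. In all 4 of 11 measured members were at least 2-fold lower and 2 higher. The median log2 ratio was 0.04 and the mean -0.84, because the lower members differed by far more than the higher ones.

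Fetal timing genes, a set around the RNA-binding protein Lin28b and its targets, had the lowest median of the 30 programme lists, -1.42 on the log2 scale, with 5 of 6 measured members at least 2-fold lower and none higher. Besides Hmga2 and Hmga1 these were the RNA-binding proteins Igf2bp1 (102 against 243 CPM), Igf2bp2 (108 against 235 CPM) and Igf2bp3 (124 against 373 CPM), which bind messages of fetal growth genes. Igf2bp2 lost the call in 2 alternatives. Arid3a was at 31.5 against 36.7 CPM. Lin28b itself had 9 uncultured counts and none in cultured wells, too few to be counted as measured. Summed over the list, single uncultured wells ranged from 0 to 6251 CPM with a median of 2288 CPM, and cultured wells from 0 to 1438 CPM with a median of 428 CPM. The ranges overlapped, but none of the cultured wells lay above the uncultured median.

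**Figure D3:**
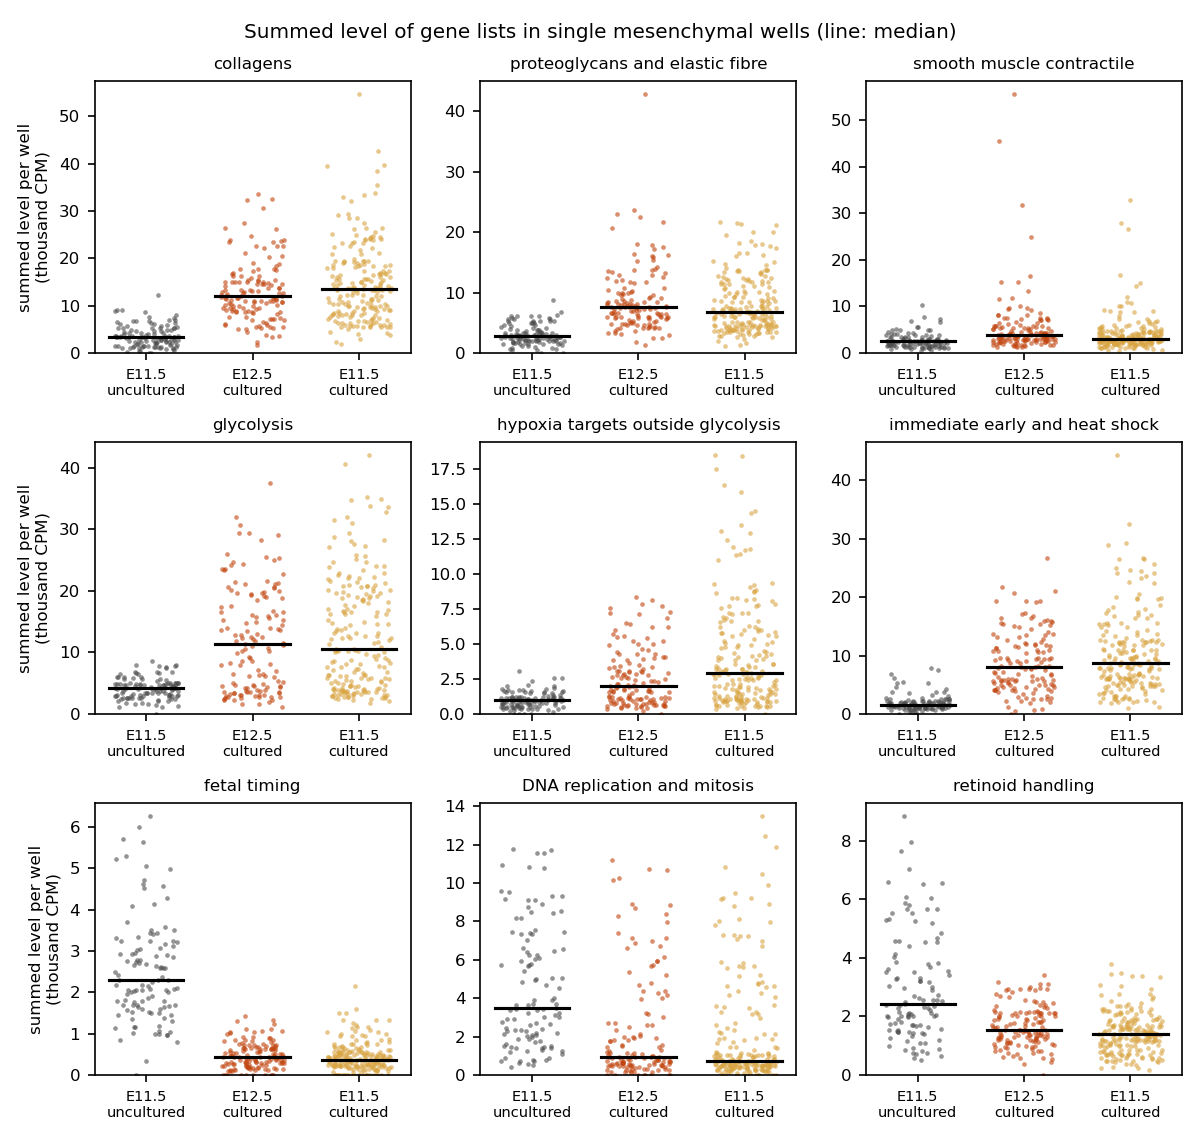
Summed level of 9 gene lists (vertical axes, units of 1000 CPM) in single mesenchymal wells of the E11.5 uncultured, E12.5 cultured and E11.5 cultured plates, with a line at the median. Medians of the collagen, glycolysis and immediate early and heat shock lists are higher on both cultured plates. Those of fetal timing, DNA replication and retinoid genes are lower, and the smooth muscle panel has a few cultured wells far above the rest.

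The listed collagen genes were higher as a group. Col1a1 and Col3a1, which chose the wells, were left out, and since the rule asked for collagen the other collagens are not independent of it. Of 16 measured, 12 were at least 2-fold higher and none lower, with a median log2 of 1.75. Col1a2, the second chain of type I collagen, stood at 6359 CPM (6223 to 6497) in cultured, 2058 CPM (1952 to 2169) in uncultured and 7974 CPM in E11.5 cultured wells, 3.09-fold higher (2.92 to 3.27). The type VI chains, which form beaded filaments around cells, differed more: Col6a1 stood at 1134 against 121 CPM, 9.41-fold (7.53 to 11.9), and Col6a2 at 1373 against 154 CPM, 8.90-fold (7.30 to 10.9). Basement membrane chains Col4a1 (860 against 107 CPM) and Col4a2 (581 against 85.3 CPM) were higher as well. Col26a1 was the member that went furthest the other way, with 86.0 against 150 CPM, a difference below 2-fold. Col2a1, Col9a1 and Col9a3 were counted with the cartilage markers and are not in this list. Of these, Col2a1 was far lower in culture, with 9.98 against 162 CPM.

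Collagen was also spread over most cultured wells. The summed list ranged from 1671 to 33646 CPM in cultured wells, with a median of 11975, and from 0 to 12264 CPM in uncultured wells, with a median of 3280. After each well was thinned to 2000 counts, 85 of 133 cultured wells (63.9%) lay above the highest of 102 uncultured wells. Among proteoglycans and elastic fibre genes 13 of 17 measured were at least 2-fold higher and none lower, with a median log2 of 1.79. Ogn, a small leucine-rich proteoglycan, stood at 248.8 against 22.05 CPM and Lum, another of that family, at 206 against 41.2 CPM. Lox, which cross-links collagen and elastin, stood at 218 against 22.05 CPM and at 432 CPM in E11.5 cultured wells. The fibrillins went apart: Fbn1 was 2.92-fold higher (257 against 88.2 CPM) and Fbn2, the fibrillin of early development, stood at 394 against 683 CPM, 1.74-fold lower.

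Elastin (Eln) had the largest ratio of that list, with 900 CPM in cultured, 14.7 CPM in uncultured and 370 CPM in E11.5 cultured wells, but a single cultured well held 66.0% of its counts. With cycling wells left out the log2 ratio was 2.29 in place of 5.94. The basement membrane list of laminins, nidogens and associated proteins gave 5 higher and none lower of 10 measured, namely Lama2, Lamb2, Nid2, Hspg2 and Sparc. Lamb2, a laminin chain of mature basement membranes, stood at 144 against 27.9 CPM and Nid2, which links laminin to collagen IV, at 240 against 60.3 CPM. Among genes of matrix turnover 7 of 13 were higher, such as the protease inhibitor Timp3 (369 against 112 CPM) and the membrane protease Mmp14 (385 against 162 CPM). Adamts9, a versican-cleaving protease, was the lower one, with 89.8 against 295 CPM, 3.29-fold (2.61 to 4.17).

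Smooth muscle genes were higher on average, with strong inequality between wells. Of 15 measured contractile genes 9 were at least 2-fold higher and none lower, with a median log2 of 1.76. Acta2, smooth muscle actin, stood at 915 CPM (864 to 968) in cultured, 69.1 CPM (50.8 to 91.9) in uncultured and 557 CPM in E11.5 cultured wells, 13.2-fold higher (9.89 to 18.1). The 5 cultured wells with most counts held 64.0% of the Acta2 counts. Myh11, the heavy chain of smooth muscle myosin, stood at 114 CPM against 1.47 CPM (1 count), with a ratio interval of 13.8 to 3093, and 5 wells held 64.5% of its cultured counts. The regulatory light chain Myl9 (514 against 73.5 CPM), its kinase Mylk (494 against 109 CPM) and the actin-binding protein Tagln (232 against 26.5 CPM) were higher too. Tpm1, a tropomyosin, stood at 588 and 590 CPM.

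In single wells the summed smooth muscle list ranged from 1254 to 55535 CPM on the cultured plate, with a median of 3873, and from 478 to 10262 CPM on the uncultured plate, with a median of 2479. Thinned to 2000 counts, 20 of 133 cultured wells (15.04%) lay above the highest uncultured well. Without cycling wells the log2 ratio of Myh11 was 1.84 in place of 6.28. Myh11 had 1 uncultured count, and where it drops out a floor of 3 counts takes its place. The smaller value is therefore not read as a change in level. Pericyte genes divided. Kcnj8 and Abcc9, the 2 subunits of a potassium channel of pericytes, stood at 90.6 against 13.2 CPM and 105 against 19.1 CPM. Pdgfrb, the receptor that recruits pericytes, stood at 164 against 45.6 CPM, 3.59-fold higher (2.45 to 5.41), whereas Rgs5, a pericyte regulator of G protein signalling, stood at 148 against 338 CPM and Notch3 at 134 against 218 CPM. Rgs5 lost its 2-fold call in 3 of 14 alternatives.

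Markers of differentiated medullary and cortical stroma gave 7 higher and 2 lower of 13 measured. Cldn11, a claudin found in stroma, stood at 454 against 88.2 CPM, 5.15-fold higher (3.95 to 6.84), and Postn, a matrix protein of fibroblasts, at 301 against 77.9 CPM, 3.86-fold higher (2.89 to 5.25). Alx1, a homeobox factor of medullary stroma, stood at 79.1 against 63.2 CPM with an interval that included 1. Ntn1, a guidance protein of the early stroma, was lower, with 29.2 against 88.2 CPM. Of 7 nuclear receptors measured 4 were higher and none lower, among them the glucocorticoid receptor Nr3c1 (127 against 48.5 CPM) and the thyroid hormone receptor Thra (267 against 89.7 CPM).

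Of the signalling pathways, those of insulin-like growth factors and Wnt had more members past 2-fold than Hedgehog, TGF-beta and YAP. The shares of the Hedgehog, TGF-beta and YAP lists did not exceed the 21.4% of all measured genes past 2-fold in either direction. Igf1, the growth factor of later life, stood at 379 CPM (346 to 414) in cultured, 58.8 CPM (42.0 to 80.1) in uncultured and 704 CPM in E11.5 cultured wells, 6.45-fold higher (4.67 to 9.14). Binding proteins accompanied it: Igfbp2 stood at 401 against 48.5 CPM, 8.26-fold higher (5.81 to 12.1), and Igfbp5 at 1295 against 438 CPM, 2.96-fold higher (2.61 to 3.35). Igfbp5 dropped below 2-fold in 1 alternative. Irs1, which relays the receptor's signal, was lower, with 40.7 against 89.7 CPM. In all 6 of 12 measured members of the insulin-like growth factor list were higher and 1 lower.

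The Wnt list gave 4 higher and 2 lower of 10 measured. Wnt4, a ligand of nephron progenitors and medullary stroma, stood at 185 CPM (162 to 210) against 55.9 CPM (39.5 to 76.7), 3.31-fold higher (2.34 to 4.79). Antagonists differed in direction: Dkk3 stood at 111 against 16.2 CPM and Dkk2 at 81.4 against 29.4 CPM, but Sfrp2 at 310 against 1245 CPM, 4.02-fold lower (3.56 to 4.53). Without wells holding muscle, cartilage or neuronal genes, Sfrp2 no longer reached 2-fold, with a log2 ratio of -0.91. Nkd1, an inhibitor induced by Wnt, was 2.19-fold higher and Lgr4, an R-spondin receptor, 2.12-fold lower, and they lost these calls in 3 and 2 alternatives.

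In the Hedgehog list 1 of 9 measured genes passed 2-fold, Gli3, the factor that acts as repressor without ligand, with 111 against 313 CPM, 2.81-fold lower (2.27 to 3.50). The pathway's targets Gli1 (125 against 66.1 CPM) and Ptch1 (190 against 119 CPM) were above their uncultured levels by less than 2-fold. The TGF-beta list gave 2 lower and none higher of 12, Tgfb2 (57.6 against 162 CPM) and Tgfbr1 (60.6 against 150 CPM, a call lost in 3 alternatives). Genes of YAP and integrin mechanosensing gave 2 higher and 1 lower of 15, with a median log2 of -0.03. Cyr61, a target of YAP, stood at 213 against 157 CPM and at 629 CPM in E11.5 cultured wells.

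Imprinted growth genes moved apart from each other, with 2 higher and 3 lower of 15, a median log2 of 0.07 and a mean of -0.08. The imprinted gene Nnat, given further up with its lower level in culture (log2 ratio -3.60), is not in this list. Meg3, a maternally expressed RNA, stood at 2228 CPM (2147 to 2310) in cultured, 549 CPM (494 to 607) in uncultured and 2669 CPM in E11.5 cultured wells, 4.06-fold higher (3.65 to 4.54). Its paternally expressed neighbour Dlk1 stood at 949.8 against 465 CPM, close to 2-fold, and lost the call in 7 alternatives. The paternally expressed zinc finger gene Peg3 stood at 436 against 1736 CPM, 3.98-fold lower (3.60 to 4.41), and Mest at 838 against 1960 CPM, 2.34-fold lower (2.16 to 2.53). H19 stood at 5100 against 4216 CPM and the cell cycle inhibitor Cdkn1c at 2617 against 2030 CPM, both under 2-fold.

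**Figure D4:**
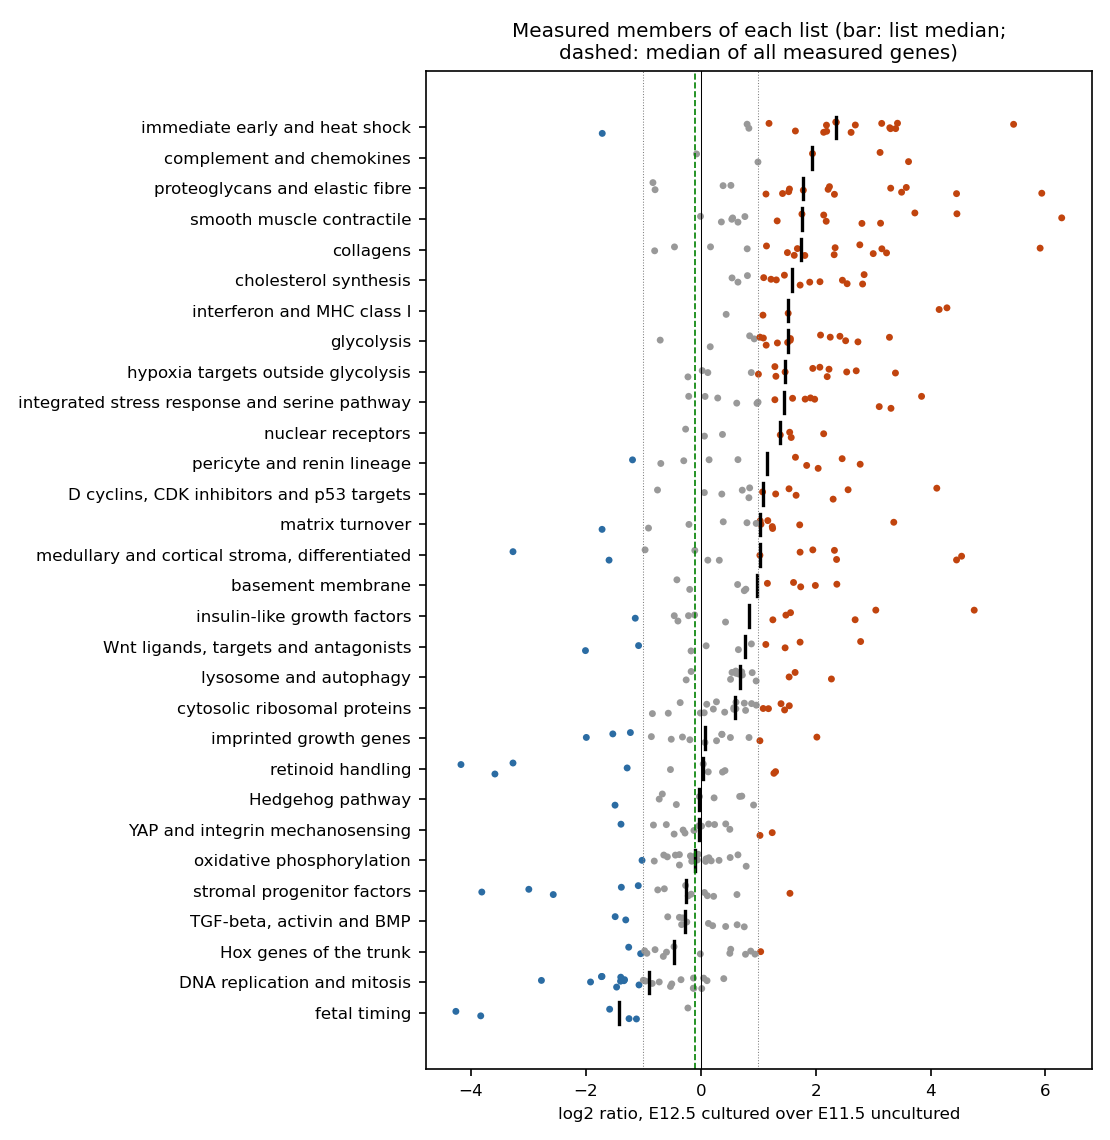
The log2 ratio of E12.5 cultured over E11.5 uncultured mesenchyme (horizontal axis) of each measured member of 30 gene lists, with a bar at the list's median, a dashed line at the median of all measured genes (-0.10) and dotted lines at 2-fold. Immediate early and heat shock genes have the highest median (2.36) and fetal timing genes the lowest (-1.42), while members of the oxidative phosphorylation list lie close to 0.

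Glycolysis genes were higher in cultured mesenchyme, and genes of the respiratory chain hardly differed. Of 17 measured glycolysis genes 13 were at least 2-fold higher and none lower, with a median log2 of 1.51. Pgk1, which makes the first ATP of the pathway, stood at 760 CPM (713 to 809) in cultured, 132 CPM (106 to 163) in uncultured and 659 CPM in E11.5 cultured wells, 5.74-fold higher (4.62 to 7.21). The isomerase Gpi1 stood at 687 against 144 CPM, enolase Eno1 at 848 against 200 CPM and the lactate exporter Slc16a3 at 206 against 30.9 CPM. Aldolase Aldoa (1214 against 412 CPM), pyruvate kinase Pkm (1957 against 776 CPM), lactate dehydrogenase Ldha (2005 against 911 CPM) and Gapdh (2204 against 1079 CPM) differed by less. Gapdh lost the 2-fold call in 5 alternatives and Ldha and Aldoa in 1 each. Pfkp, an isoform of phosphofructokinase, went the other way with 20.7 against 33.8 CPM and an interval that included 1.

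Of 22 measured genes of oxidative phosphorylation none was 2-fold higher and 1 was lower, with a median log2 of -0.09. Cox4i1, a subunit of cytochrome oxidase, stood at 507 against 460 CPM and Atp5b, of ATP synthase, at 750.2 against 971 CPM. Ndufa4, another cytochrome oxidase subunit, was the lower one, with 203 against 412 CPM, and lost this call in 4 alternatives.

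Hypoxia-inducible factors bind a short core, ACGTG, and switch on genes for oxygen sensing, vessel growth, glucose uptake and collagen hydroxylation. Of 15 measured targets outside glycolysis 11 were at least 2-fold higher and none lower, with a median log2 of 1.47. P4ha2, a subunit of the prolyl hydroxylase that stabilises the collagen triple helix, stood at 231 CPM (206 to 259) in cultured, 22.05 CPM (12.3 to 36.4) in uncultured and 345 CPM in E11.5 cultured wells, 10.5-fold higher (6.25 to 18.95). P4ha1, its partner isoform, stood at 311 against 67.6 CPM, and Bnip3, which directs mitochondria to autophagy, at 315 against 74.97 CPM, 4.21-fold (3.14 to 5.75). Vegfa, the growth factor of vessels, stood at 342, 140 and 547 CPM, and the glucose transporter Slc2a1 at 122, 44.1 and 193 CPM on the E12.5 cultured, uncultured and E11.5 cultured plates. The oxygen sensors Egln3 (56.8 against 14.7 CPM) and Egln1 (239 against 119 CPM) were higher, but Egln1 stood at 2.005-fold and lost the call in 6 alternatives, Fam162a in 2 and Vegfa in 1. Plod2, a lysyl hydroxylase, and Mxi1 did not pass 2-fold, with 147 against 172 CPM and 58.3 against 57.3 CPM.

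The promoter of P4ha2 holds that core, in capitals below, 78 bases before the transcription start, in the window chr11:54100674-54100923 on the plus strand (RefSeq, GRCm38.p6). It is printed because P4ha2 had the largest ratio of the list.
P4ha2 promoter: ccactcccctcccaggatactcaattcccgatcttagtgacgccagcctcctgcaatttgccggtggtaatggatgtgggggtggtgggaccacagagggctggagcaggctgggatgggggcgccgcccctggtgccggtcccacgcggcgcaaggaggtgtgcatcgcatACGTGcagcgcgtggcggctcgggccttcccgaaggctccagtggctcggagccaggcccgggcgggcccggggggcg

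Of 11 listed hypoxia targets with a 250-base window upstream of the start in the RefSeq table, 10 (90.9%) held ACGTG or its reverse complement CACGT, against 26.9% of 5714 measured genes and 16.7% of all 32536 windows. The core was searched on both strands, where a CACGTG, the E-box of Myc and other factors, counts as a match as well. The list was chosen as known targets, and a match is a description, not a bound site. The lines below give 25 bases around a core, in capitals, for 5 other members chosen after their values were seen, to show how its neighbours differ. The core is the one nearest a listed start among those whose flanking bases all lie within the window. In the Bnip3 line the base before the capitals is c, so the core there is part of a CACGTG.
P4ha1, chr10:59323270-59323294, plus strand: tgacagagcgCACGTagcgagggct
Bnip3, chr7:138909599-138909623, minus strand: cacgcgccgcACGTGccacacgctc
Slc2a1, chr4:119108699-119108723, plus strand: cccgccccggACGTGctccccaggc
Vegfa, chr17:46025360-46025384, minus strand: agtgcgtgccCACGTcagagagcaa
Mxi1, chr19:53329660-53329684, plus strand: cggatgatcaACGTGcagcgcctgc
Mxi1 holds the core 25 bases before its start but its level hardly differed between plates, whereas P4ha1, with the reverse core 16 bases before the start, was 4.597-fold higher (3.38 to 6.38).

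Glycolysis and hypoxia genes varied together among cultured wells. Thinned to 2000 counts per well, the Spearman correlation of the summed lists was 0.758 over 133 cultured wells and -0.047 over 102 uncultured wells. Uncultured wells held a mean of 2.05 hypoxia counts, with a variance 1.39 times the mean, against 5.25 counts and 4.09 times in cultured wells. Counting error could thus hide a correlation in uncultured wells. These are descriptions over wells of 1 plate each, which share a library, and in cultured wells the lists had correlations of -0.13 and -0.15 with the well's depth. Of the cultured wells, 70 (52.6%) had more glycolysis counts and 26 (19.5%) more hypoxia counts than the highest uncultured well. In unthinned wells the glycolysis list ranged from 1115 to 37604 CPM on the cultured plate, with a median of 11382, and from 0 to 8542 CPM on the uncultured plate, with a median of 4166.

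**Figure D5:**
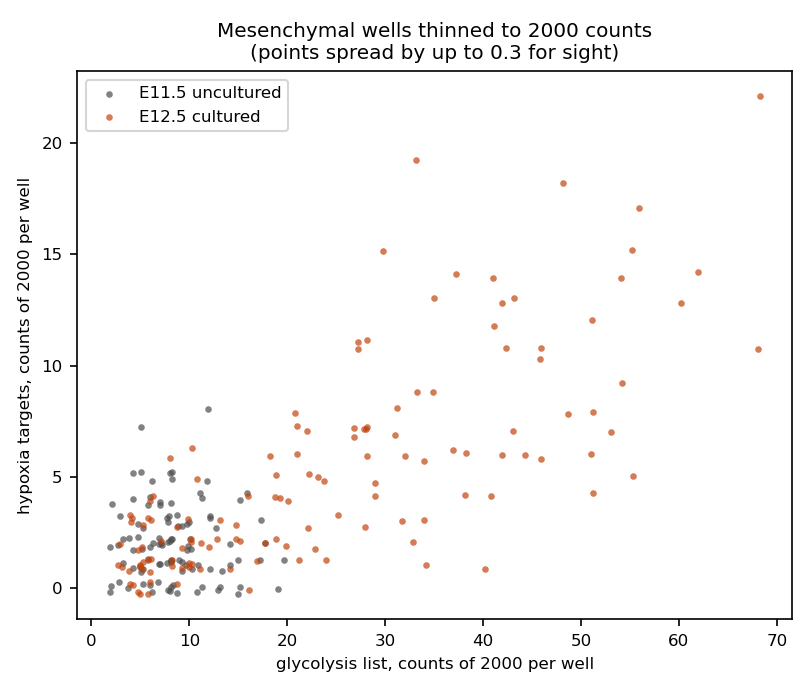
Counts of hypoxia targets (vertical axis) against counts of glycolysis genes (horizontal axis) in mesenchymal wells thinned to 2000 counts, 133 E12.5 cultured (red) and 102 E11.5 uncultured (grey). Cultured wells spread along a rising band from the uncultured range outward (Spearman 0.758), and uncultured wells form a compact cloud at low counts.

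Genes of the cholesterol list were higher too, 11 of 14 measured and none lower, with a median log2 of 1.59. Nsdhl, an enzyme of the late pathway, stood at 104 CPM (86.9 to 123) in cultured, 14.7 CPM (7.05 to 27.0) in uncultured and 67.95 CPM in E11.5 cultured wells, 7.05-fold higher (3.72 to 15.03). Insig1, which restrains the pathway when sterol is plentiful, stood at 43.0 against 7.35 CPM. Sc5d, another enzyme of the late pathway, stood at 62.2 against 42.6 CPM with an interval that included 1. Lysosomal genes gave 3 higher and none lower of 14, among them the cathepsins Ctsz (107 against 22.05 CPM) and Ctsd (137 against 47.0 CPM). Of 22 ribosomal protein genes 5 were higher and none lower. Rps27 stood at 1217 against 442.5 CPM and Rpl36 at 552 against 190 CPM, while Rpl23 stood at 1542 against 2765 CPM, so the list did not move as 1 block. The shares of the lysosomal and ribosomal lists past 2-fold were near the 21.4% of all measured genes past 2-fold in either direction. They are not read as a result about these genes.

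The list of immediate early and heat shock genes had the highest median of the 30 programme lists, 2.36 on the log2 scale. Immediate early genes respond within minutes to growth factors, stress and tissue dissociation. Of 18 measured members of the list 15 were at least 2-fold higher and 1 lower. Fos, a subunit of the transcription factor AP-1, stood at 1671 CPM (1601 to 1743) in cultured, 169 CPM (140 to 203) in uncultured and 2008 CPM in E11.5 cultured wells, 9.88-fold higher (8.19 to 12.0). Its relative Fosb (820.1 against 83.8 CPM) and its partners Junb (505 against 47.0 CPM) and Jun (1159 against 254 CPM) were higher as well. Egr1, a zinc finger factor of the serum response, stood at 1993 against 309 CPM, 6.46-fold higher (5.61 to 7.47), and Klf2 at 128 against 2.94 CPM (2 counts), with a ratio interval of 11.9 to 363. Hsph1, a heat shock chaperone, was the lower member, with 53.7 against 176 CPM.

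In single wells the summed list ranged from 0 to 26802 CPM on the cultured plate, with a median of 8028, and from 0 to 7795 CPM on the uncultured plate, with a median of 1591. None of the uncultured wells lay above the cultured median. Genes of the integrated stress response and of serine synthesis gave 8 higher and none lower of 14. Atf5, a factor translated under stress, stood at 365 CPM (332 to 399) against 36.7 CPM (23.8 to 54.2), 9.92-fold higher (6.64 to 15.5), and asparagine synthetase Asns at 82.9 against 22.05 CPM. Atf4, the central factor of this response, stood at 461 against 234 CPM, just under 2-fold, and Psat1, of serine synthesis, at 163 against 188 CPM with an interval that included 1. Aldh1l2, a mitochondrial folate enzyme, stood at 42.2 against 2.94 CPM (2 counts) and at 119 CPM in E11.5 cultured wells.

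Of 16 interferon and MHC class I genes 5 were measured and 4 were higher, led by Ifitm3 and Ifitm1. B2m, the light chain of MHC class I, stood at 206 against 151 CPM, and H2-D1, a heavy chain, at 5.37 against 8.82 CPM on 7 and 6 counts. Ifit1 and Ifit3, classical interferon-induced genes, were at 0 on both plates. Among complement and chemokine genes 3 of 5 measured were higher. The complement protease C1s1 stood at 72.1 against 5.88 CPM and the inhibitor Serping1 at 317 against 82.3 CPM, 3.85-fold higher (2.91 to 5.19). C1ra, with 38.4 CPM in cultured wells and no uncultured count, was higher by at least 3.12 on the log2 scale against the floor of 3 counts, with a lower limit of the exact interval of 6.82-fold. Cxcl12, the chemokine of stromal cells, stood at 553 against 582 CPM.

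Of 24 measured genes of DNA replication and mitosis, 10 were at least 2-fold lower in culture and none higher, with a median log2 of -0.90, and 14 did not pass 2-fold. Mki67, found in cycling cells, stood at 178 CPM (156 to 203) in cultured, 469 CPM (419 to 523) in uncultured and 224 CPM in E11.5 cultured wells, 2.63-fold lower (2.22 to 3.13). The mitotic kinase Aurka stood at 16.1 against 110 CPM, 6.84-fold lower (4.17 to 11.7), cyclin B1 (Ccnb1) at 59.9 against 226 CPM and topoisomerase Top2a at 254 against 638 CPM. The lower calls were mostly genes of mitosis, but the replication gene Rrm2 was among them, with a log2 ratio of -1.39. Log2 ratios of the other replication genes lay between -0.72 (Rrm1) and 0.40 (Pcna), with Mcm7 at -0.53. Pcna (140 against 106 CPM) and Mcm2 (95.2 against 94.1 CPM) had intervals that included 1. Cdk1, the kinase that starts mitosis, was 2.76-fold lower, and its log2 ratio was -0.73 in plate rows A to G in place of -1.46.

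In single wells the summed list ranged from 0 to 11203 CPM with a median of 941 on the cultured plate and from 428 to 11756 CPM with a median of 3501 on the uncultured plate, so that wells with high levels were found on both. The cycle inhibitor Cdkn1a (p21) stood at 101 CPM (84.8 to 120) against 5.88 CPM (4 counts, all in 1 well). Its log2 ratio of 4.11 ranged from 2.33 to 4.49 over the alternatives, and the low end can rest on the floor. The inhibitors Cdkn1b and Cdkn1c did not pass 2-fold, with log2 ratios of 0.72 and 0.37. Nor did the cyclins Ccnd2 and Ccnd3, with 0.85 and 0.84. Of 13 measured D cyclins, inhibitors and p53 targets 7 were higher and none lower. Plk2, a p53 target, stood at 130.5 against 22.05 CPM, 5.92-fold higher (3.49 to 10.8), and Ccnd1, the cyclin that answers growth signals, at 279 against 113 CPM with the call lost in 2 alternatives. Mdm2, which degrades p53, stood at 38.4 against 64.7 CPM.

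Levels divided by total counts do not tell how many cells held a transcript, and wells of both plates were therefore thinned to 2000 counts, which left out 5 cultured and 11 uncultured wells. Hmga2 was then found in 10.5% of 133 cultured and 91.2% of 102 uncultured wells, Dcn in 63.9% and 8.82%, and Mki67 in 13.5% and 39.2%. Unthinned, the shares were 39.1% and 94.7% for Hmga2, 79.7% and 18.6% for Dcn and 28.3% and 61.9% for Mki67. Wells with at least 3 leukocyte markers were looked at for background, but they were no clean one: on the cultured plate they were deeper than mesenchymal wells and held more Dcn. Dcn was found in 6 of 8 such cultured wells (median 14213.9 counts) and Hmga2 in 24 of 26 such uncultured wells (median 7441.55 counts). These unthinned shares are near those of mesenchyme on the same plate, so no share is read as a share of expressing cells. The level of Dcn in those wells was 2861 CPM on the cultured and 5.79 CPM on the uncultured plate, and that of Hmga2 34.6 and 1105 CPM.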

How the data were processed

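Per the submitters' processing notes the tools were featureCounts 1.5.2 and STAR 2.6.1a on GRCm38.p5, with no settings described. The authors deposited, for each plate, a table of expected counts, genes by wells. All values above 0 (100% within 0.1) match the number of distinct molecular identifiers corrected for repeated draws from 4096, and 1.63% of them are not whole. They were rounded only for intervals and thinning. A column named UNK (4.21%, 4.27% and 4.26% of the tables in the order uncultured, E12.5 cultured and E11.5 cultured) was left out, as were the 15 control wells per plate and the wells that the labels list with more than 1 cell. No doublet caller was run on sorted single cells. Wells over 3 times the median count were removed instead, 4 of the cultured and 1 of the uncultured plate.

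Counts were summed over the mesenchymal wells of a plate, scaled to 1000000 and compared as ratios for genes with at least 50 counts over both plates. A call is a ratio of at least 2 in either direction, and no p-value was computed. Genes were named as members of the lists, and in each direction as the 15 genes with the most extreme interval limit nearest 1. Such genes had to be found in at least 25% of the wells of the higher plate with at most 10% of its counts in 1 well, and genes of the rule, gene models without a name and added sequences were left out. The lists not given with values in the text are the markers of coelomic epithelium and gonad, whose summed level was 13.8 CPM cultured and 41.2 CPM uncultured. Members and lists were chosen with earlier results of these data known. The promoters of Klf2 and Hmga2 held none of the 3 motifs searched (CArG box, TGATGNAA and ACGTG). Some listed genes are not reported here. The scripts were tested on simulated data. Tools were python 3.11.15, numpy 2.4.6, pandas 2.3.3, scipy 1.17.1 and matplotlib 3.10.9.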

Additional observations from a re-analysis of the deposited data

Results flagged for a closer look

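3 added sequences of the mouse alleles, listed beside the genes and used in none of the comparisons, gave counts in E12.5 cultured mesenchyme above the uncultured plate. The EGFP_IRES_Cre sequence stood at 47.6 CPM (36.5 to 61.0) in 50 of 138 cultured wells and had 1 count in the 113 uncultured wells (1.47 CPM), although both groups carry this allele by their labels. The tdTom sequence, whose allele the uncultured mice do not carry by their label, stood at 86.7 CPM (71.5 to 104) in 64 cultured wells and had 1 uncultured count. The NeoR sequence stood at 69.8 CPM against 45.6 CPM, 1.53-fold higher (1.01 to 2.38). On the E11.5 cultured plate the levels were 32.9, 65.3 and 90.3 CPM in this order. Lgr6 itself had 2 counts in cultured and none in uncultured mesenchymal wells.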

How the results depend on the processing

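The comparison was repeated under 14 alternatives, 2 of them (subtracting control wells, and leaving out wells with muscle, cartilage or neuronal genes) added after seeing the data. None of the followed genes changed direction past 2-fold, and of all called genes at most 3 changed sign, in the wells without Mki67 or Top2a. Of 211 followed genes past 2-fold, 161 stayed past it in every alternative that measured them. Against 848 higher and 740 lower genes, the counts were 1931 and 1551 with a minimum of 10 counts, 266 and 172 with a minimum of 200, and 306 and 296 with the rule applied to wells thinned to 2000 counts. They were 550 and 363 in wells with no progenitor count and no count of 7 further markers (81 cultured and 33 uncultured wells), 505 and 273 without wells holding Mki67 or Top2a (68 and 22 wells), and 551 and 348 in plate rows A to G. In the last 4 of these settings 2710 to 3872 genes reached 50 counts, against 7414. Subtracting control wells shifted single genes by a median of -0.11 on the log2 scale and left the median of all genes at -0.10, and centring moved that median by 0.10. In the other alternatives the counts were within 1.5 times. Shares of wells moved with the depth kept: Hmga2 was found in 70.8% of uncultured wells at 1000 counts per well against 91.2% at 2000.

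No paired analysis was possible because each group is a single plate. Genes with few uncultured counts, such as Myh11, Klf2 and Pdlim3, have wide intervals, and 22 to 35 uncultured wells in the smallest settings limit their precision. Where an alternative leaves such a gene no uncultured count, its log2 ratio depends on the floor of 3 counts.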
